A study of Mus musculus with 23 samples.

Results

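Giving back a full dose of Ago2 to mouse embryonic stem (ES) cells that had run short of Argonaute was followed in 4 of the study's 23 libraries, over all 18412 genes of the deposited exon and intron tables. The cells are TT-FHAgo2 cells, a clonal line that is Blm-/- (a helicase gene) and Ago1,2,3,4-/-, so labelled as lacking the 4 mouse Argonautes, and that carries CreERT2 and a doxycycline-inducible Ago2 transgene, TT-FHAgo2, as its only Argonaute. Before the experiment they were propagated at 0.1 µg/mL doxycycline, on gelatin in medium with serum and leukaemia inhibitory factor. The control group (noDox, n = 2) was taken after 96 h without doxycycline. The treated group (2.5Dox, n = 2) had the same 96 h without it and then 48 h at 2.5 µg/mL, which the labels' protocols give as the dose for wild-type Ago2 amounts. A low-dose group (0.1Dox, n = 2) had 48 h at 0.1 µg/mL in place of 2.5. For the opposite experiment, loss, other libraries of the same line were held at 2.5 µg/mL for 48 h and then taken at 0 h or after 96 h without doxycycline (n = 2 each). All groups share the labelled Blm and Argonaute deletions. Dosed cells spent 48 h longer in culture than their control and also received the drug, so the return of Ago2, doxycycline itself and time in culture cannot be told apart here.

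Argonaute proteins hold a microRNA and use its seed, bases 2 to 8, to find matching sites in the 3′ untranslated region (UTR) of messenger RNAs, which are then destabilised and translated less. In mouse ES cells the microRNAs of the miR-290 cluster are abundant. Several of them share their seed with the miR-302 family, and the miR-17 family holds nearly the same seed shifted by a base. They are known for letting ES cells pass quickly from G1 to S phase by lowering cell-cycle inhibitors such as Cdkn1a. They also lower Lefty1 and Lefty2, secreted inhibitors of Nodal, a ligand of the Tgf-β family. let-7, which is known for opposing the self-renewing state, is held back in ES cells by the RNA-binding protein Lin28a.

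The mature microRNAs below, from RefSeq (build GRCm38.p6), are shown because genes with a match to these seeds carry one of the results. Bases 2 to 8 are in capitals.

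mmu-miR-291a-3p: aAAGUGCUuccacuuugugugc
mmu-miR-294-3p: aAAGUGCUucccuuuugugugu
mmu-miR-295-3p: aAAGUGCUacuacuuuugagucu
mmu-miR-302b-3p: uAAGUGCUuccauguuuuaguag
mmu-miR-302d-3p: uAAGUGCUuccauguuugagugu
mmu-miR-17-5p: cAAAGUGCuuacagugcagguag
mmu-miR-20a-5p: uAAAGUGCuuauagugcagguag
mmu-let-7a-5p: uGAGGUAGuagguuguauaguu

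The first 5 share a seed. miR-17 and miR-20a hold the first 6 of these letters 1 base later, and let-7a has an unrelated seed. The following 3′ UTR segments (mm10, GENCODE M21, written on the gene's own strand) are from genes whose RNA was measured below. The capitals mark an 8-base match, made of the complement of bases 2 to 8 of miR-294 and an A opposite its base 1.

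Lefty1, chr1:180938199-180938222, plus strand: tgcactgtatgcgaAGCACTTAca
Lefty2, chr1:180897903-180897926, plus strand: catcacccagtttaAGCACTTAca
Cdkn1a, chr17:29100486-29100509, plus strand: accgtgggtgtcaaAGCACTTAgt
Lats2, chr14:57691084-57691107, minus strand: tacagtatggaaagAGCACTTAtt
Rbl2, chr8:91123816-91123839, plus strand: gtatttttcaataaAGCACTTAta
Tgfbr2, chr9:116087769-116087792, minus strand: atatcaaaacctaaAGCACTTAtt
Irf2, chr8:46846650-46846673, plus strand: gcaccttatcttgaAGCACTTAca
Oasl2, chr5:114911508-114911531, plus strand: catgcctttatctcAGCACTTAga

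Each of these 8 genes has 1 such match in its longest annotated 3′ UTR. All 8 fell at the full dose and do not stand for every gene with a match. Ago3 (2 matches), Lyrm4 and Pogk (1 match each), also named below, rose. A match is a description of the sequence and no evidence that the site is used.

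The libraries were deep, but the groups differed in depth and in the share of introns. Exon reads were 45.0 and 53.8 M in the 2.5Dox libraries and 24.7 to 34.6 M in the other 4 rescue libraries. Intron reads were 3.52 to 5.08 M per library. Introns took 8.29 and 8.64% of the reads in the 2.5Dox libraries, against 11.97 to 12.47% in the other 4 rescue libraries and 10.97 to 12.33% in the time course. Summed reads over 185 olfactory receptor genes, which ES cells are not known to use, were 350 and 347 in noDox, 396 and 345 in 0.1Dox and 180.3 and 182.7 in 2.5Dox, a group of genes chosen after values were seen. The part of these differences in the results was not tested. The 10 ES cell markers summed to 364422 and 368198 normalised reads in noDox and 410804 and 412503 in 2.5Dox, and 10 fibroblast markers to 183 and 197 against 355 and 272. Thy1 carried this last difference, with 49.2 and 67.9 reads in noDox and 206 and 147 in 2.5Dox. No other fibroblast marker was called, but most of the others had too few reads to be tested. Every library thus held the markers of its labelled cell type. Nothing in the labels says that the 2 libraries of a group came from separate cultures, so p-values measure only the spread between these libraries.

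Throughout, levels are normalised reads, which are reads divided by the size factor of their library. Changes are log2 differences of normalised reads + 1 between the means of 2 libraries each, with their standard error (SE). This scale understates the change of genes with few reads. A gene was called at an adjusted p below 0.05 by limma, fitted across all genes with a mean of at least 10 reads. Where groups are said not to overlap, this describes single genes, mostly picked by their change. No share of such genes over all genes is given.

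The Argonaute genes were read first. Ago1 had 0 exon and 0 intron reads in all libraries of the line. Ago2 had 7259.8 and 7300.1 exon reads in noDox, 7776 and 7672 in 0.1Dox and 6093 and 5284 in 2.5Dox, a difference of -0.36 (SE 0.05, adjusted p = 1.83e-06) between the full dose and none. Its exon reads were thus lower, not higher, in both libraries that should hold the most Ago2, and its intron reads did not pass the test (0.05). Whether the tables count the transgene is not given in the sources used here, so Ago2 reads do not check the labels of the doses. Ago3 rose slightly, from 1962 and 1915 to 2313 and 2314 (0.26, adjusted p = 6.64e-04). Ago4 was near silent, at 42.3 and 23.7 exon reads in noDox, 21.4 and 8.49 in 0.1Dox and 5.23 and 5.54 in 2.5Dox, and fell (-2.36, SE 0.65, adjusted p = 0.00271). Blm had 3769 and 3749 exon reads in noDox and 3586 and 3721 in 2.5Dox, and did not pass the test (-0.04). Only Ago1 was thus at 0, and since no source used here gives the deleted part of each gene, the reads of Ago3, Ago4 and Blm do not check their deletions.

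Among the proteins that act with Argonaute, the scaffold proteins of the silencing complex were the lead members by adjusted p. Tnrc6b, which links Argonaute to deadenylases, had 11156 and 11407 exon reads in noDox, 7336 and 7641 in 0.1Dox and 3653 and 3829 in 2.5Dox. Its 3 groups did not overlap, and it fell at the full dose (-1.59, SE 0.05, adjusted p = 3.96e-20). Tnrc6a fell as well (-1.08), as did the microprocessor subunits Drosha (-0.37) and Dgcr8 (-0.16), the microRNA-cutting enzyme Dicer1 (-0.27) and the decapping enzyme Dcp2 (-0.38). The poly(A)-binding protein gene Pabpc1 rose from 55005 and 58631 to 91365 and 95209 (0.72). Of the 17 members of this list that could be tested, 11 fell, 3 rose and 3 did not pass, with a median of -0.16 (-0.098 with scaling to the upper quartile) beside 0.0007 over all genes tested. The shares of all genes called were 32.0% falling and 31.8% rising, and the full-dose exon counts of every list below stand beside these same shares. Other list counts stand beside their own shares of all genes. These were 22.1% falling and 24.3% rising in introns, and 13.1% lower and 11.9% higher in exon minus intron, which is explained below. They were 22.1 and 22.0% at the low dose, 21.0 and 20.0% between the doses, and 32.5 and 32.4% on loss.

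Textbook targets of the ES cell microRNAs fell together. Lefty1 had 13977 and 13064 exon reads in noDox, 5759 and 6107 in 0.1Dox and 1949 and 1697 in 2.5Dox. The 3 groups lay far apart with the libraries of each close to one another (-2.89, SE 0.06, adjusted p = 1.13e-23). Lefty2 had 16132 and 15403 exon reads in noDox, 6746 and 7556 in 0.1Dox and 2346 and 2347 in 2.5Dox, again without overlap (-2.75, SE 0.05, adjusted p = 4.12e-24). Cdkn1a, the inhibitor of cyclin-dependent kinases known as p21, had 5742 and 5641 exon reads in noDox, 2643 and 2581 in 0.1Dox and 1206 and 1163 in 2.5Dox (-2.26, SE 0.06, adjusted p = 3.37e-21). Each of these genes had at the low dose a level between the other groups.

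Rbl2, a pocket protein that represses E2F targets, had 2992 and 3008 exon reads in noDox, 1369.8 and 1359 in 0.1Dox and 397 and 430.2 in 2.5Dox (-2.86, SE 0.08). Lats2, a Hippo pathway kinase, had 2231 and 2139 exon reads in noDox, 950.0 and 914 in 0.1Dox and 585 and 501 in 2.5Dox (-2.01, SE 0.09). The type II Tgf-β receptor gene Tgfbr2 had 374 and 348 exon reads in noDox, 156 and 173 in 0.1Dox and 67.95 and 64.8 in 2.5Dox (-2.43, SE 0.20). In each of the 3 genes the order of the groups was the same and no library of a group reached another group. The orphan nuclear receptor Nr2f2 fell (-3.24), the antiproliferative gene Btg2 (-1.47), Dazap2 (-1.45), Ei24 (-1.34), the chromatin remodeller subunit Smarcc2 (-1.03), the caspase Casp2 (-1.01), the methyl-CpG binding protein Mbd2 (-0.92), and the pro-apoptotic Bcl2l11 (-0.67).

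Of the 20 genes listed as known targets, all 20 were tested, 17 fell, 1 rose and 2 did not pass. Their median change was -1.40. The 1 that rose was Zfpm1, a cofactor of GATA factors, at 1.05. At the low dose, 17 of the 20 fell, with a median of -0.77, and 16 were lower at the full than at the low dose. Both doses were compared with the same noDox libraries, and the difference between the doses uses the dosed libraries again. These counts are thus not independent of one another. After loss of Ago2, in other libraries, 18 of the 20 rose, with a median of 1.31. The list was assembled with earlier results of these data known and is no independent evidence of direction.

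**Figure D1:**
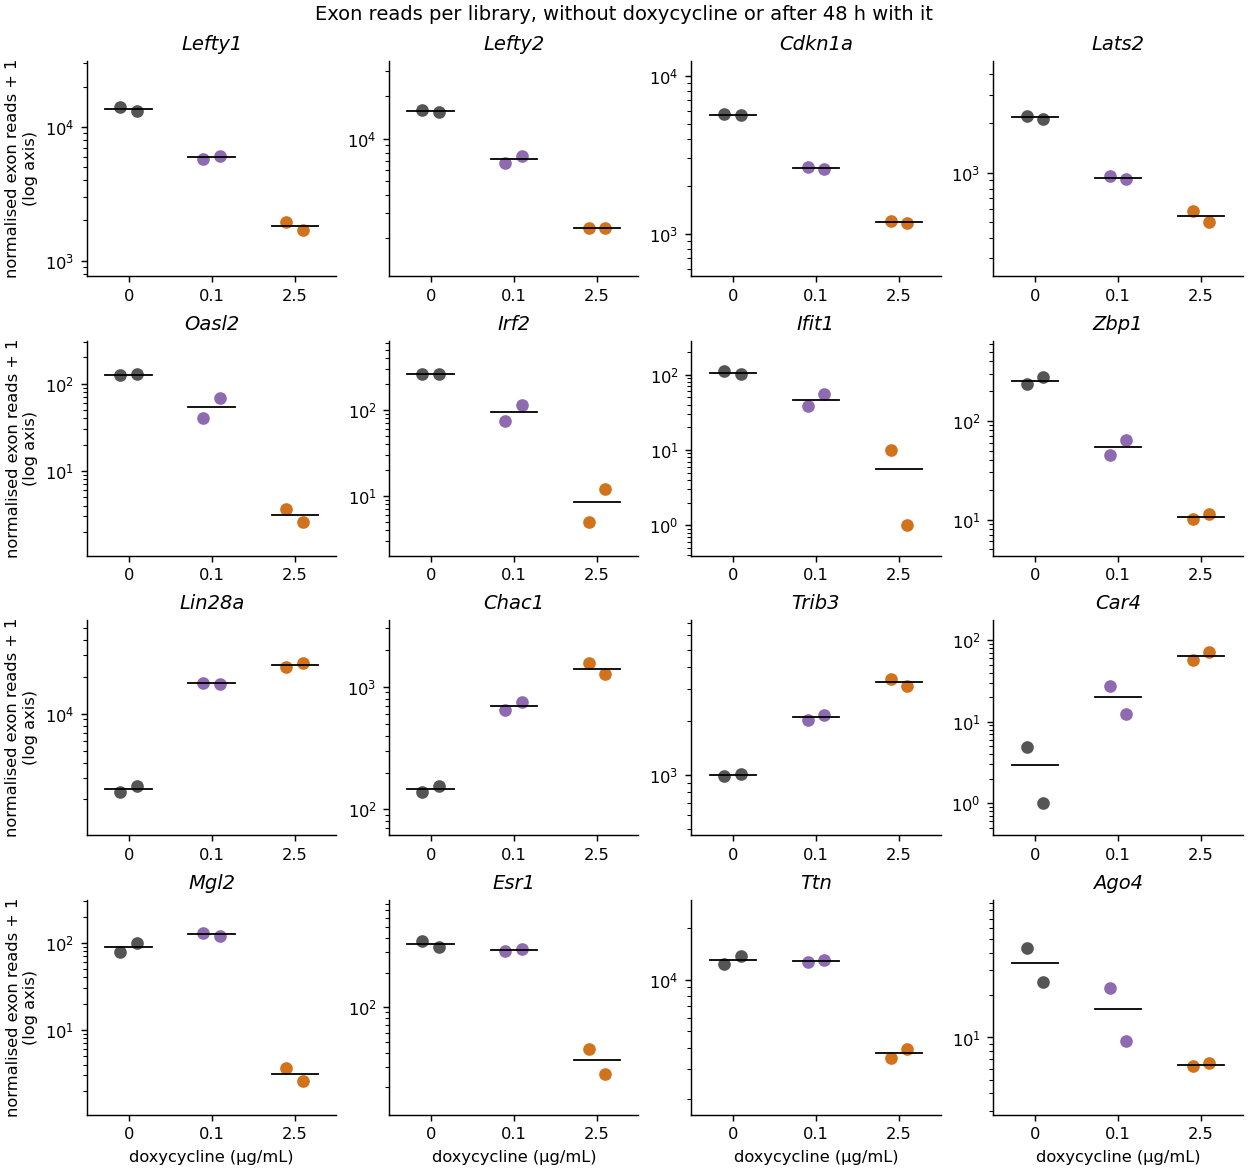
Normalised exon reads + 1 (log axis) of 16 genes in the 6 rescue libraries, by doxycycline dose (0, 0.1 and 2.5 µg/mL). Points are libraries and short lines mark the mean of the 2 libraries of a dose. Lefty1, Lefty2, Cdkn1a and Lats2 step down at each dose, Lin28a and Chac1 step up, and Mgl2, Esr1 and Ttn are low only at 2.5 µg/mL.

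Counted over the genome, most measured genes differed between the full dose and none. The test covered 13176 genes and called 8400 of them (63.8%), with 4189 rising (31.8%) and 4211 falling (32.0%). Most changes were small: 750 genes (5.69%) rose and 1133 genes (8.60%) fell at least 2-fold. The median SE of an exon change was 0.0910, and the median absolute difference between the 2 libraries of a group was 0.0825 to 0.106. At the low dose 5808 genes were called (44.1%), 2900 higher (22.0%) and 2908 lower (22.1%). The full dose differed from the low dose in 5403 genes (41.0%), 2639 higher (20.0%) and 2764 lower (21.0%), and falls were the larger: 411 genes (3.12%) were at least 2-fold lower at the full dose and 80 (0.607%) at least 2-fold higher. With a prior without trend the difference between the doses was called for 1509 higher and 1833 lower genes.

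The response was set beside the loss of Ago2 in the same line, which shares no library with it. After 96 h of loss 8867 of 13652 genes were called (65.0%), 4426 up (32.4%) and 4441 down (32.5%), with 1178 (8.63%) up and 651 (4.77%) down at least 2-fold. Of the 4184 genes that rose on re-induction and were tested in both, 3198 (76.4%) fell on loss and 102 rose. Of the 4206 that fell on re-induction, 3230 (76.8%) rose on loss and 154 fell. Across the 13149 genes tested in both, Spearman's rho of the log2 changes was -0.79, a description over genes that are not independent replicates.

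Genes chosen by the size of their change on loss were then read on re-induction. The 1121 genes that had risen at least 2-fold on loss had a median change of 1.45 there and of -1.36 on re-induction. Of these, 965 (86.1%) fell and 0 rose. The low dose brought their median to -0.70. The 577 genes that had fallen at least 2-fold on loss had medians of -1.38 and 1.36, and 445 of them (77.1%) rose. For these the low dose gave a median of 0.89. The time course and the rescue were normalised apart, so levels in the 2 experiments are not compared.

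**Figure D2:**
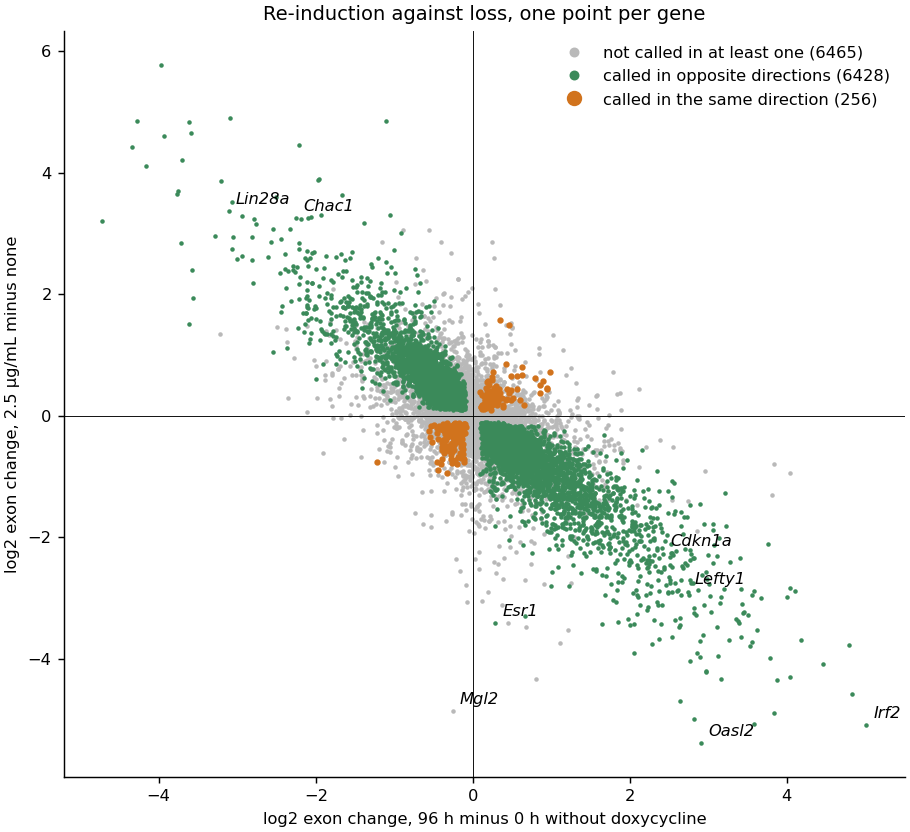
Log2 exon change on re-induction (2.5Dox minus noDox, vertical) against that after 96 h of loss (96 h minus 0 h, horizontal) for 13149 genes. Coloured points are the 6428 genes called in opposite directions and the 256 called in the same direction; 6465 others are grey, and most points lie along a falling diagonal.

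Lin28a, the RNA-binding protein that blocks let-7 maturation, rose strongly. It had 2297 and 2563 exon reads in noDox, 17978 and 17434 in 0.1Dox and 24239 and 25876 in 2.5Dox. The low dose alone brought it close to the level of the full dose, though the doses differed (0.50, adjusted p = 9.80e-09). The full change was 3.37 (SE 0.05, adjusted p = 1.66e-26), its introns rose from 8.65 and 13.5 to 84.1 and 76.9 reads (2.78), and loss had lowered it (-3.11). Among 19 tested members of the list of Lin28 and let-7 targets, 7 rose, 6 fell and 6 did not pass, with a median of 0.01 (-0.049 to 0.045 without 1 library, and 0.077 with scaling to the upper quartile). The RAS gene Nras rose (0.65), as did Mycn (0.33), the mRNA-binding protein Igf2bp1 (0.29) and the phosphatase Cdc25a (0.49). Plagl1, an imprinted zinc finger gene, fell from 14115 and 14310.3 to 3873 and 4160.0 (-1.82), and its relative Plagl2 (-1.60).

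Genes with seed matches were then described as classes, by 8-base matches in the longest annotated 3′ UTR of 12867 genes. The 444 genes with a match for miR-294, which is also the match for miR-302b, had a median exon change of -0.34, beside 0.000047 over all 12867. In this class 55.2% fell and 15.3% rose, beside 32.0 and 31.8%. The median differed by 0.0211 (SD) between the 2 libraries of a group. With matches of 7 bases it was -0.21. The 19 genes with 2 or more matches had a median of -0.57. Class members had long UTRs (median 2845.5 bases, against 1146 for all), and length moves with the change, as given further on.

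The class of miR-17 (564 genes) had a median of -0.34 (-0.22 with matches of 7 bases), with 56.4% falling. The remaining seeds of ES cell microRNAs gave smaller shifts: -0.21 for miR-92a (351 genes), -0.13 for miR-19b (763), -0.14 for miR-21a (287), -0.09 for miR-16 (572) and -0.09 for miR-26a (613). let-7a gave -0.02 (475 genes), with 33.3% falling, and 0.042 with scaling to the upper quartile, which moved the median of all genes to 0.065. Seeds of microRNAs known for other tissues, added after the data were seen, gave -0.10 for miR-206 (540 genes), -0.08 for miR-9 (586), -0.03 for miR-223 (438), -0.13 for miR-155 (422) and -0.03 for miR-192 (172). Their UTRs were about as long, with medians of 2498.5 to 2736 bases. With 2 or more matches the exon medians were -0.35 for miR-206 (35 genes), -0.11 for miR-9 (33) and -0.27 for miR-223 (20). They were -0.25 for miR-155 (15) and -0.05 for miR-192 (3).

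Introns allowed a second reading of the same classes. Reads in introns stem from unspliced RNA and are used as a measure of transcription, so the exon change minus the intron change sets changes of mature RNA apart from it. For miR-294 the median intron change was -0.12 and the median exon-minus-intron change -0.23, with 24.9% of 398 genes called lower, beside -0.04 and 13.1% over all genes. For miR-17 it was -0.14 (24.2% of 499 lower). For the classes of let-7a, miR-16, miR-19b, miR-26a and miR-21a it lay between -0.0041 (miR-26a) and 0.04 (miR-16), for miR-92a at -0.04, and for miR-206 at -0.03. Genes with 2 or more miR-294 matches had medians of -0.56 in introns and -0.27 in exon minus intron (16 genes). With 2 or more miR-17 matches these medians were -0.48 and -0.00092 (22 genes). In the loss experiment the exon medians of the miR-294 and miR-17 classes were 0.27 and 0.26.

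**Figure D3:**
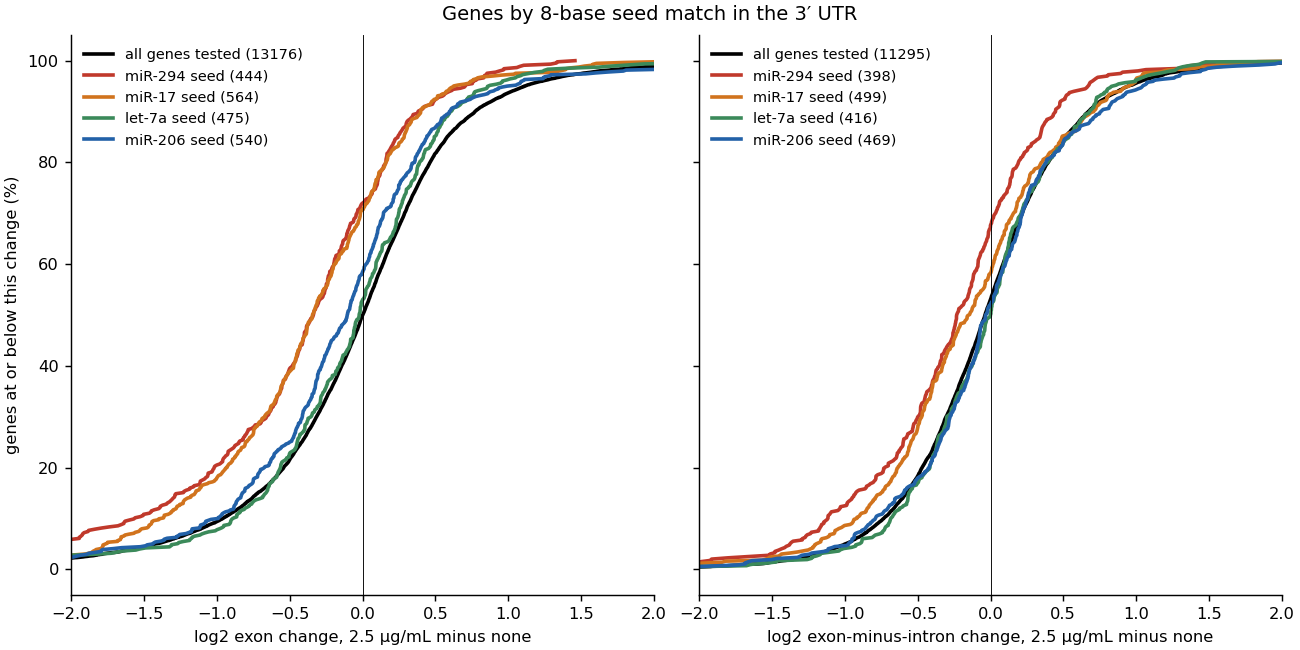
Cumulative share of genes (vertical) by log2 change at the full dose against none (horizontal), for exon changes (left) and exon-minus-intron changes (right). Lines are all genes and the classes with an 8-base match for miR-294 (444 and 398 genes), miR-17 (564 and 499), let-7a (475 and 416) and miR-206 (540 and 469); the miR-294 and miR-17 lines lie to the left of the others over most of the range in both panels.

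Exon and intron changes moved broadly together. Of 11580 genes tested in introns, 5377 (46.4%) were called, 2819 up (24.3%) and 2558 down (22.1%), of which 775 (6.69%) and 938 (8.10%) changed at least 2-fold. Of the 11295 genes tested in both, 1790 fell in exons and introns and 1898 rose in both, while 204 fell in exons and rose in introns and 189 did the reverse. Spearman's rho across these genes was 0.63, which is a description: both values come from the same libraries. The exon-minus-intron change was called for 2825 genes (25.0%), 1346 higher (11.9%) and 1479 lower (13.1%). Its median SE was 0.204, against 0.0910 for exons. These counts were not stable: without the noDox library of fewer reads they were 726 and 795, without the other noDox library 755 and 831, and with a prior without trend 575 and 654.

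Among genes that fell at least 2-fold in exons, introns could be tested in 857, of which 585 fell, and the exon-minus-intron change was lower in 221 and higher in 32. Among those that rose at least 2-fold, introns rose in 343 of 480, and the exon-minus-intron change was higher in 66 and lower in 16. Of the known microRNA targets, 12 of the 18 that could be tested were lower in exon minus intron, with a median of -0.83, and their median intron change was -0.28. Rbl2 had an exon-minus-intron change of -1.99 (adjusted p = 1.87e-06) and an intron change of -0.83. Cdkn1a had -1.66 (adjusted p = 7.51e-06) and -0.56. Casp2 had introns that rose (0.62) while its exons fell (-1.01). Lefty1 and Lefty2 fell in introns as well (-1.87 and -1.77), with exon-minus-intron changes of -0.99 and -0.94. The intron call of Cdkn1a was lost without the 2.5Dox library of more reads (-0.35, adjusted p = 0.205) and without either noDox library (-0.57 and -0.55), and the exon-minus-intron call of Lefty2 without the noDox library of more reads (-0.62, adjusted p = 0.100).

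Some genes had introns that rose while their exons fell or were not called. Rrm2b, a p53-responsive subunit of ribonucleotide reductase with 1 miR-294 match in its 3′ UTR, had exon reads of 1123 and 1107 in noDox and 414 and 372 in 2.5Dox (-1.50). Its introns went from 1408 and 1409 to 3556 and 3862 reads (1.40, SE 0.08), so the exon-minus-intron change was -2.86 (adjusted p = 5.79e-10). Sumf1, an enzyme that activates sulfatases, had introns at 3910.1 and 3847 and 12686 and 12488 reads (1.70) while its exons fell (-0.73). The 2 groups did not overlap in these values. Nme3, a nucleoside diphosphate kinase gene, rose in introns from 6.92 and 6.75 to 71.5 and 49.1, and its exons did not pass (0.32).

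Other genes had introns that fell more than their exons, or fell while their exons rose. The glucocorticoid receptor gene Nr3c1 had intron reads of 106 and 114 in noDox and 20.2 and 0 in 2.5Dox, and its exons fell less (-0.99), which gave an exon-minus-intron change of 3.64 (adjusted p = 0.00533), a call that was lost without either noDox library (adjusted p = 0.0505 and 0.0552). The mitochondrial ribosomal protein gene Mrps28 and Fam110b rose in exons (0.56 and 0.47) while their introns fell (-2.20 and -2.26). The cadherin Cdh13 fell in both, with -3.82 in introns and -1.33 in exons. Lyrm4, a factor of iron-sulfur cluster assembly with 1 miR-294 match in its 3′ UTR, rose in exons (0.97) and fell in introns (-1.50). Intron values come from 3.52 to 5.08 M reads and from the libraries whose intron share was low.

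**Figure D4:**
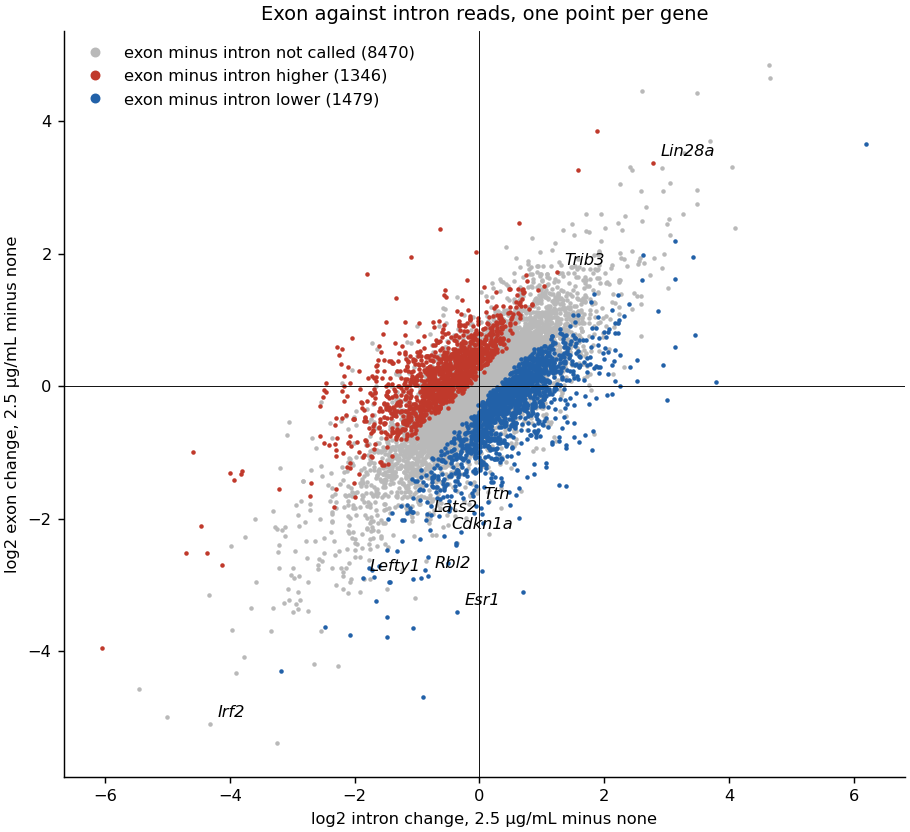
Log2 exon change (vertical) against log2 intron change (horizontal), 2.5Dox minus noDox, for 11295 genes. Colours mark genes whose exon-minus-intron change was called higher (1346) or lower (1479); 8470 others are grey, and Rbl2, Cdkn1a and Esr1 are among those lower in exon minus intron.

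Gene length moved with the change. In the fifth of tested genes with the shortest exons (82 to 1694 bases) the median exon change was 0.23, and in the fifth with the longest (4893 to 104320 bases) -0.25. The low dose gave 0.11 and -0.11 for these groups of genes, and loss gave -0.16 and 0.11. Introns showed the same order, from 0.40 to -0.25. Spearman's rho of change and length was -0.26 across genes. The part of length in the results on UTR matches was not tested.

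Lefty1 and Lefty2 are both targets and inhibitors of Nodal, so the Nodal and Tgf-β pathway was read by role. Nodal itself, the ligand, fell a little (-0.26), the co-receptor Tdgf1 likewise (-0.12), and the growth factor Gdf3 (-0.22). Among ligands, Inhbb, an activin subunit, went from 7182 and 7503 to 3592 and 3426 (-1.06, adjusted p = 5.44e-16), while Bmp4 rose from 321 and 289.9 to 531 and 569 (0.85). The libraries of the 2 groups did not overlap in either gene.

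Of 9 receptor genes of the list 6 fell: Tgfbr2 as above, Bmpr2 from 4451 and 4269 to 1943 and 1926 (-1.17), Tgfbr1 (-0.57), Acvr2b (-0.51), Acvr1 (-0.40) and Bmpr1a (-0.22). Acvr1b, Acvr2a and the co-receptor Tgfbr3 did not pass (-0.03, -0.0022 and -0.14). Acvr1c, also a receptor gene of the list, is not reported here. Of the signal-carrying Smads, Smad3 fell (-0.66), Smad2 (-0.26) and Smad5 (-0.34), whereas Smad1 and Smad4 rose (0.50 and 0.20). The extracellular inhibitors Fst and Fstl3 rose (0.47 and 1.17) and Fstl1 fell (-0.26). In all, 16 of the 28 tested components fell, 6 rose (3 without the noDox library of more reads or with a prior without trend) and 6 did not pass, with a median of -0.24.

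Targets of Smad2 and Smad3, the carriers of the Nodal signal, fell in 13 of 20 cases. The streak gene Gsc had 44.3 and 42.04 exon reads in noDox, 21.4 and 26.9 in 0.1Dox and 5.23 and 11.1 in 2.5Dox (-2.35, adjusted p = 4.04e-04), a low level. Bhlhe40 (-1.34), Otx2 (-0.96), Pmepa1 (-0.92) and Skil (-0.38) fell. The inhibitory Smad7 rose slightly (0.20). Counted over the 20 of 24 listed genes that passed the read minimum, these 13 fell, 3 rose and 4 did not pass, with a median of -0.68 (-0.38 with no read minimum or one of 50). Introns fell in 7 of 14 and rose in 0, beside 22.1 and 24.3% over all genes. Lefty1 and Lefty2, which also stand on the microRNA target list, are 2 of the 13. In the loss experiment 13 of 22 rose.

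Bone morphogenetic protein targets gave no single direction: 4 of 12 fell (2 with scaling to the upper quartile) and 3 rose. Id4 fell (-1.38) and Msx2 fell (-1.89), while Id3 and the pseudoreceptor Bambi rose (0.56 and 0.59).

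Genes of the integrated stress response rose in 28 of 30 cases. This pathway is driven by the transcription factor Atf4, which raises amino acid transport and synthesis. Chac1, a glutathione-degrading enzyme, had 138 and 155 exon reads in noDox, 652 and 747 in 0.1Dox and 1554 and 1266 in 2.5Dox (3.25, SE 0.12, adjusted p = 3.57e-18). Trib3, a pseudokinase that feeds back on Atf4, had 982 and 1016 exon reads in noDox, 2038 and 2168 in 0.1Dox and 3433 and 3146 in 2.5Dox (1.72, SE 0.07). In both genes the 3 groups did not overlap and rose with the dose. Of the serine and one-carbon enzymes, Phgdh went from 1402 and 1519.7 to 5790.4 and 5703 (1.98), Psat1 rose by 1.17, Psph by 1.47, Mthfd2 by 1.45 and Shmt2 by 0.91.

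The transporters Slc7a11, Slc6a9, Slc3a2, Slc7a5 and Slc7a1 rose by 2.75, 1.15, 1.15, 1.07 and 1.01. Asparagine synthetase, Asns, rose by 0.94, Atf4 itself by 0.78, the stress regulators Ddit3 and Cebpb by 1.15 and 1.60, and the secreted Stc2 by 2.19. Over the list, 28 of 30 genes rose, 0 fell and Atf5 and Cebpg did not pass, with a median of 1.15. The low dose raised 24 and lowered 1, and 28 were higher at the full than at the low dose. Introns rose in 22 of the 26 tested, with a median of 1.10, beside 24.3% of all genes. After loss 26 of 30 fell, beside 32.5% of all genes. The list was chosen with earlier results known.

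Promoter letters of the list were compared with those of all genes, as a description of the list. Its members were chosen as genes of this pathway, whatever their promoters did here. The part of the element in the changes was not tested. RefSeq promoters (GRCm38.p6, 250 bases before to 50 after the start) were at hand for 10199 of the genes tested. The C/EBP-Atf response element, searched as TGATGNAA on both strands, was found in 7 of 26 promoters of the list (26.9%) and in 222 of the 10199 (2.18%). The 7 were Trib3, Chac1, Asns, Slc7a11, Nupr1, Pck2 and Atf3. The promoters of Chac1 and Trib3 follow because both genes are drawn in the plot of levels. They are written on the gene's strand with the match in capitals. In both it reads on the opposite strand.

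Chac1, chr2:119350992-119351291, plus strand: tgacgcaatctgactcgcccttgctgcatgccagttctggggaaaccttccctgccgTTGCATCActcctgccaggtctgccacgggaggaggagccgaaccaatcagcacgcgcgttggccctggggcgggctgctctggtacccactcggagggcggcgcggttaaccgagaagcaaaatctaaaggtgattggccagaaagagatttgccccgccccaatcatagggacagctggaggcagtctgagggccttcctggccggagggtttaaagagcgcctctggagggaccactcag
Trib3, chr2:152344011-152344310, minus strand: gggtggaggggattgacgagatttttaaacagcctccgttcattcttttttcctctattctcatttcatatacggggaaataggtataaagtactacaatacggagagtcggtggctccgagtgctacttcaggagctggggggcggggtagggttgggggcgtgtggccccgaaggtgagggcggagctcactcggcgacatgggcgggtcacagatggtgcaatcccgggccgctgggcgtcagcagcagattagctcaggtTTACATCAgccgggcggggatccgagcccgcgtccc

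The interferon and nucleic acid sensing genes moved the other way. Oasl2, a relative of the antiviral oligoadenylate synthetases, had 125 and 127 exon reads in noDox, 38.96 and 67.9 in 0.1Dox and 2.61 and 1.58 in 2.5Dox (-5.38, SE 0.47, adjusted p = 1.42e-10). Irf2, a regulator of interferon genes and also on the microRNA target list, had 262 and 262 exon reads in noDox, 72.9 and 113 in 0.1Dox and 3.92 and 11.1 in 2.5Dox (-5.09, SE 0.38). Zbp1, a sensor of unusual nucleic acids, had 234 and 274 exon reads in noDox, 43.98 and 62.2 in 0.1Dox and 9.15 and 10.3 in 2.5Dox (-4.57, SE 0.34). In all 3 the 0.1Dox libraries lay between the other groups, without overlap. Both Oasl2 and Irf2 hold a miR-294 match in their 3′ UTR, shown above, and Irf2 also fell in introns (-4.32).

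Ifit1, an antiviral RNA-binding protein, had 111 and 100.2 exon reads in noDox, 37.7 and 53.7 in 0.1Dox and 9.15 and 0 in 2.5Dox (-5.06, adjusted p = 2.23e-07), with few reads behind the lowest value. Irf9 and Irf1, transcription factors of the interferon response, fell (-1.84 and -1.36) without a called intron change (0.02 and -0.19). The kinase Eif2ak2 fell (-1.02) and the adaptor Tmem173, known as STING, (-1.52). Bst2, an antiviral membrane protein, rose from 262 and 250.1 to 761 and 786 (1.59), and the sensor Ddx58, Ifitm2 and the RNA-editing enzyme Adar rose too (0.49, 0.34 and 0.27). Of 30 listed genes 24 passed the read minimum; 18 fell, 4 rose and 2 did not pass, with a median of -0.69. The median difference between the doses was -0.20, with 11 lower and 4 higher at the full dose. Loss had raised 19 of 24.

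The interferon-stimulated response element, searched as GAAANNGAAA on both strands, was in 10 of 21 promoters of this list (47.6%) and in 289 of the 10199 (2.83%). It was found in Irf2, Stat2, Ifit1, Oas1a, Rsad2, Ifitm3 and Eif2ak2, which fell, and also in Bst2, Ddx58 and Ifitm2, which rose. The promoter of Ifit1 is shown for its 2 matches, both on the opposite strand, and the element was in 1 of the 26 promoters of the Atf4 list. In turn, the C/EBP-Atf element was in 2 of the 21 promoters of the interferon list (9.52%), those of Irf2 and Ifitm3. The interferon list, too, was chosen by pathway, and the part of either element in its changes was not tested.

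Ifit1, chr19:34640639-34640938, plus strand: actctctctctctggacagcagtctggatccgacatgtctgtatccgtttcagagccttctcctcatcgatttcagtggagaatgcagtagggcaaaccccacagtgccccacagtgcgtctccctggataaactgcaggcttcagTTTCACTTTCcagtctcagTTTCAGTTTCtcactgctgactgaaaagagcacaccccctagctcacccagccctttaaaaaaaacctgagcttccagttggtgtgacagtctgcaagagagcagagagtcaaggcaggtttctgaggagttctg

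Several inhibitors of the cell cycle fell, and 1 rose. Besides Cdkn1a and Rbl2, the inhibitor Cdkn2b fell from 293 and 251 to 96.05 and 64.8 (-1.77) and Rb1 (-0.89). Myc rose from 686 and 721 to 2024 and 1968 (1.50, adjusted p = 8.19e-16), most of it at the low dose (1.26), and E2f4 rose (0.67). The inhibitor Cdkn1c, an imprinted gene, rose (1.25). In the list of 30 G1/S regulators 11 fell, 10 rose and 9 were not called, with a median of -0.09 (-0.02 without the noDox library of fewer reads). These shares are near the 32.0 and 31.8% over all genes.

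For p53 targets the direction was less mixed, with 17 of 22 falling, 2 rising and 3 not passing (median -0.34). The membrane protein Perp went from 1764 and 1739.6 to 601 and 678 (-1.45), Tnfrsf10b, a death receptor, fell (-0.70), Trp53inp1 (-0.52), Ccng1 (-0.41) and Mdm2 (-0.33). Trp53 itself did not pass (-0.03). Cdkn1a, Btg2 and Ei24 are on the microRNA target list too. Exon-minus-intron changes were lower in 5 of 21 of these genes and higher in 2, beside 13.1% lower and 11.9% higher over all genes.

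The Hippo pathway, a kinase cascade that restrains the coactivators Yap1 and Wwtr1, fell in 13 of 17 tested members. Mob1b, a kinase partner, went from 1918 and 1907 to 739.6 and 788 (-1.32), and the kinases Lats1 and Stk3 fell (-1.17 and -0.68). Amotl1 fell (-0.99) and its relative Amotl2 rose (0.33). The transcription factors Tead1 and Tead4 fell (-0.53 and -0.70) and Tead2 rose (0.44). Of the remaining 4, 2 rose and 2 did not pass, and the median was -0.41.

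**Figure D5:**
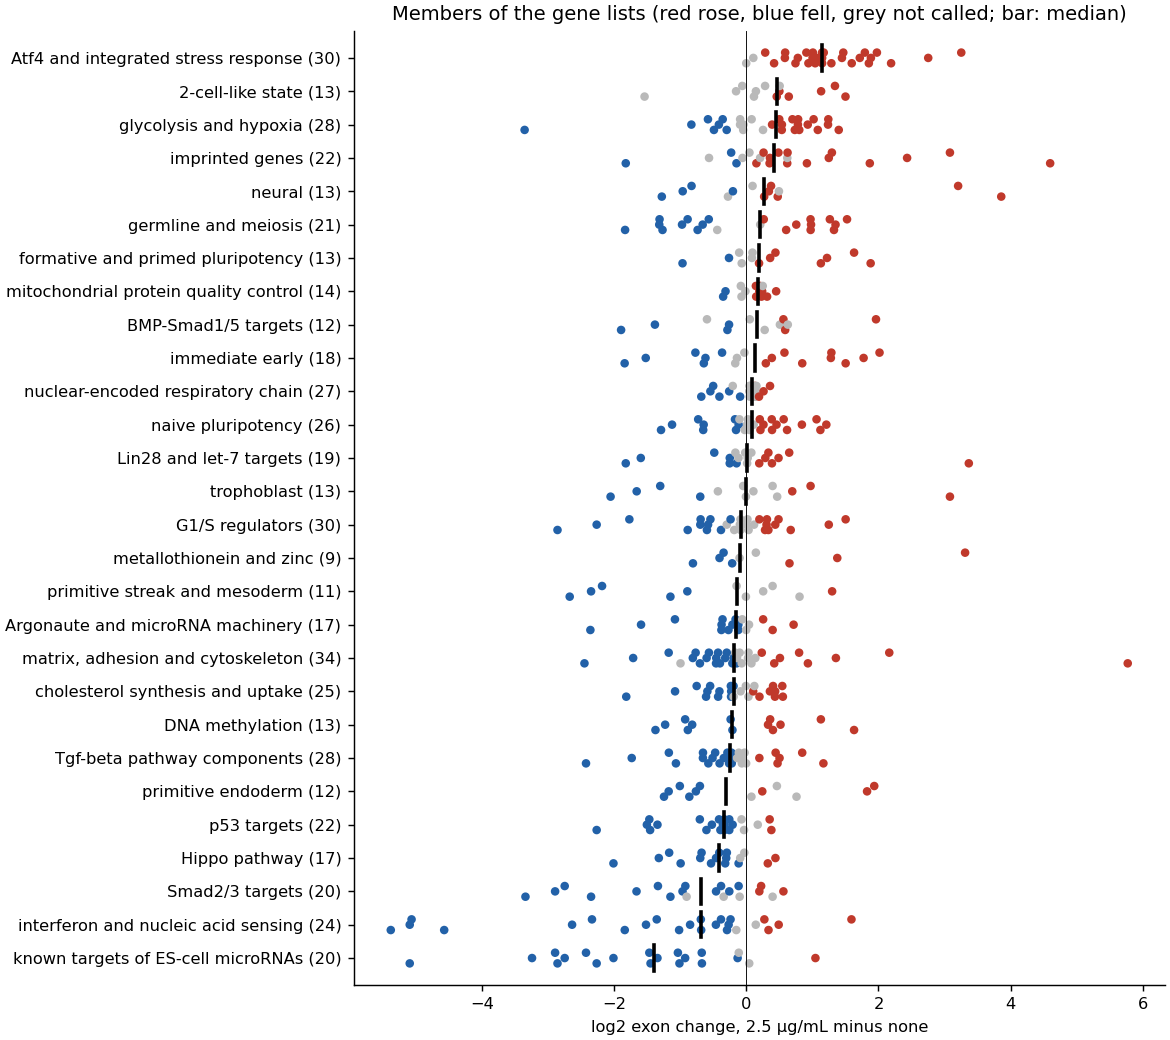
Log2 exon change of each member of 28 gene lists, 2.5Dox minus noDox. Points are genes (red rose, blue fell, grey did not pass) and the bar is the list median; lists are ordered by median, from the known microRNA targets (-1.40) to the Atf4 list (1.15).

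Energy and lipid metabolism genes went both ways, as did all genes tested (31.8% rose and 32.0% fell). Of 28 glycolysis and hypoxia genes 15 rose, 7 fell and 6 did not pass, with a median of 0.44 at the full dose (0.25 without the noDox library of more reads) and 0.46 at the low dose. The glycolytic enzymes Aldoa and Gapdh went from 17614 and 19929 to 51133 and 47736 (1.40) and from 77978 and 82894 to 163677 and 162158 (1.02), and Pgam1, Pkm and Ldha rose (0.80, 0.78 and 0.78). The glucose transporter Slc2a3 rose by 1.24 and the growth factor Vegfa by 1.24. Those that fell include the hypoxia-responsive Ndrg1 (-0.58), Kdm3a (-0.36) and Egln1 (-0.30). Loss raised 12 and lowered 12 of these genes. The glycolytic enzyme gene Tpi1 rose in both experiments (0.39 and 0.31).

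Cholesterol genes were split. The early enzyme Hmgcs1 fell (-0.59). Enzymes that rose include Msmo1 (0.55) and Dhcr7 (0.36). Of the 25 members 12 fell, 8 rose (5 without the noDox library of fewer reads) and 5 did not pass, with a median of -0.19 (-0.13 with scaling to the upper quartile). Of 27 nuclear genes of the respiratory chain 4 rose and 6 fell in exons, a balance that turned to 13 and 5 with scaling to the upper quartile and to 8 and 6 without the 2.5Dox library of fewer reads. Their introns rose in 15 and fell in 1, beside 24.3 and 22.1% over all genes. The exon-minus-intron change was lower in 13 and higher in 0, beside 13.1 and 11.9%. Cox5b had an exon change of -0.41 and an intron change of 0.77, whose call was lost without the 2.5Dox or the noDox library of more reads (0.47 and 0.57). The intron share of the 2.5Dox libraries was low, as given above, and its part was not tested. Of 14 genes of mitochondrial protein quality control 8 rose (5 with a prior without trend) and 2 fell, led by the peptidase Pitrm1 (0.45).

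Pluripotency genes went both ways, beside 31.8% of all genes tested rising and 32.0% falling. Of 26 naive genes 12 rose, 8 fell (5 with a prior without trend) and 6 did not pass, with a median of 0.08 (0.14 with scaling to the upper quartile). Klf5 went from 4307 and 4281 to 9987 and 9899 (1.21), Nr0b1 from 7207 and 7435 to 16106 and 15745 (1.12), Utf1 rose by 1.06, Esrrb by 0.57 and Pou5f1 by 0.39. Klf2 fell from 43098 and 44151 to 20425 and 19633 (-1.12), Prdm14 (-1.29), Tfcp2l1 (-0.73) and the cytokine receptor gene Lifr (-0.64). The groups did not overlap in the 3 genes given by library.

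Among 13 tested formative and primed genes 7 rose and 2 fell. The DNA methyltransferase cofactor Dnmt3l went from 5091 and 5305 to 16768 and 15451 (1.63), the methyltransferase Dnmt3b from 3338 and 3491 to 7510.2 and 7419 (1.13), Pou3f1 rose by 1.88 and Etv4 by 1.22. Otx2, which is also a Smad2 target, fell (-0.96). In the DNA methylation list all 13 tested genes were called, beside 63.8% of all genes tested. Of these 13, 6 rose and 7 fell, the latter including the methyl-CpG readers Zbtb38 (-1.37) and Mbd1 (-1.23) and the demethylase Tet3 (-0.88).

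Imprinted genes rose in 14 of 22 cases, with 3 falls and a median of 0.42, and in 9 without the noDox library of fewer reads. The melanoma antigen family gene Magel2 had 3.94 and 8.62 exon reads in noDox, 80.4 and 96.2 in 0.1Dox and 193 and 142 in 2.5Dox (4.60, SE 0.38). Ascl2, a transcription factor of the trophoblast, had 33.5 and 34.5 exon reads in noDox, 116 and 102 in 0.1Dox and 266 and 327 in 2.5Dox (3.08), and Phlda2 had 89.6 and 61.4 exon reads in noDox, 225 and 188 in 0.1Dox and 394 and 417 in 2.5Dox (2.43). In these 3 genes both doses lay above all control libraries. Mest went from 2857 and 3045 to 7335 and 7147 (1.30), and Peg10, Grb10 and Dlk1 rose by 0.62, 0.92 and 1.87.

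Lineage genes were mostly low and mixed, beside 31.8% of all genes tested rising and 32.0% falling. Streak and mesoderm genes fell in 5 of 11 cases (3 at a mean of at least 50 reads) and rose in 1 (3 with scaling to the upper quartile): Evx1 fell from 328 and 357 to 58.8 and 47.4 (-2.67) and Kdr from 214 and 177 to 39.2 and 45.1 (-2.18). Of 12 primitive endoderm genes 6 fell, among them the matrix genes Sparc (-1.01) and Col4a2 (-1.17), and 3 rose, among them Sox7 (1.94); the 6 markers of that cell type summed to 260 and 299 reads in noDox and 350 and 289 in 2.5Dox. Trophoblast genes split 3 up and 4 down of 13 (5 and 4 with scaling to the upper quartile), with Krt8 (-1.30) and Gata2 (-2.05) among the falls. Neural genes split 6 up and 4 down of 13, with the growth-cone protein Gap43 at 46.3 and 56.05 exon reads in noDox, 584 and 646 in 0.1Dox and 727 and 777 in 2.5Dox (3.86) and the intermediate filament gene Nes at -1.28. Germline genes split 10 up and 9 down of 21 (6 up without the 2.5Dox library of more reads); Dazl rose (1.33) and Rhox6 fell (-1.27).

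Matrix and adhesion genes fell in 17 of 34 cases and rose in 8, with a median of -0.18 (-0.12 with scaling to the upper quartile). Over all genes tested 32.0% fell and 31.8% rose. The matrix protein Thbs1 went from 495 and 489 to 90.2 and 88.6 (-2.45), the integrin Itgav from 8186 and 8079 to 2408 and 2558 (-1.71), and Vim fell (-0.81). Of the 10 fibroblast markers Thy1 alone was called, as given above, and Col1a1, Pdgfrb and Fbln2 did not pass. The rest were below the read minimum and not tested, and 2 of them had 0 reads in all libraries. Immediate early genes split 9 up and 6 down of 18: Jun and Fosb fell (-1.52 and -1.84), and the growth factor signalling feedback genes Spry2, Dusp6 and Dusp4 rose (1.28, 0.85 and 1.78). Of 9 metallothionein and zinc genes 3 rose, among them the haem oxygenase gene Hmox1 (1.38) and Mt3 (3.31), and 4 fell. The 2-cell-like list rose in 6 of 13 cases and fell in 0, but loss had raised 9 of 12 as well. The Zscan4 members are close copies whose reads may be shared.

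The largest single rises were of genes that were nearly silent in noDox. Mmp28, a metalloproteinase, had 3.94 and 0 exon reads in noDox, 52.8 and 53.7 in 0.1Dox and 110.4 and 131 in 2.5Dox. The protease inhibitor Spink1 had 3.94 and 2.16 exon reads in noDox, 72.9 and 126 in 0.1Dox and 86.9 and 81.4 in 2.5Dox, and the carbonic anhydrase Car4 had 3.94 and 0 exon reads in noDox, 26.4 and 11.3 in 0.1Dox and 56.2 and 70.4 in 2.5Dox. In all 3 genes the control libraries were at or near 0 and the dosed libraries well above. The fitted changes were 5.77, 4.43 and 4.85, and they depend on the added 1 read for such low values. The deubiquitinase gene Usp51, Vrtn, the meiotic helicase Hfm1, the matrix protein Matn3 and Gch1, the first enzyme of tetrahydrobiopterin synthesis, also had fewer than 10 reads in each control library, with fitted changes of 4.21, 4.11, 3.70, 3.66 and 3.63. Ubap1l started higher, at 64.0 and 21.6, and reached 508 and 378 (3.52). Intron reads rose for Hfm1 (3.70), Spink1 (3.48), the metalloproteinase Adamts19 (4.66) and the peptidyl-prolyl isomerase Fkbp11 (3.42). Steap1, a metalloreductase, went from 65.97 and 64.7 to 539.7 and 489 (2.96) with introns up by 3.49.

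Large falls outside the interferon list include Megf11, an adhesion protein, with 1322 and 1260.0 exon reads in noDox, 459 and 459.6 in 0.1Dox and 79.1 and 52.98 in 2.5Dox (-4.30, SE 0.16, adjusted p = 2.03e-18). The epithelial transcription factor Ehf, with 1 miR-294 match in its 3′ UTR, had 495 and 397 exon reads in noDox, 104 and 113 in 0.1Dox and 15.7 and 28.5 in 2.5Dox (-4.32). The adhesion receptor Adgrg6 had 226 and 192 exon reads in noDox, 89.2 and 123 in 0.1Dox and 9.801 and 11.1 in 2.5Dox (-4.20). For each of these 3 genes, picked for their large change, the doses stepped down without overlap. The interferon-induced genes Nmi and Ddx60, which are not on that list, and Clic5 fell (-4.99, -4.69 and -4.89), from under 100 reads in each control library. Pitpnm3, a lipid transfer protein gene, fell (-3.95), and its introns went from 71.8 and 58.9 reads to 0 in both 2.5Dox libraries. Introns also fell strongly in Ncmap (-4.47), a myelin-associated gene, and in Oc90 (-4.33), an inner ear matrix gene.

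The strongly changed genes were then read at the low dose. Of the 1133 that fell at least 2-fold, 751 also fell at the low dose and 877 were lower at the full than at the low dose; of the 750 that rose, 589 also rose at the low dose and 420 differed between the doses. The median changes at the low and the full dose were -0.71 and -1.49 for the falls and 0.85 and 1.39 for the rises. These share the noDox libraries. Of the falls that were also called at the low dose, 741 of 751 had risen on loss.

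Another 189 genes were called at the full dose but not at the low dose. At the full dose they fell at least 2-fold and were at least 2-fold lower than at the low dose. Their medians were -2.03 at the full and -0.41 at the low dose, the latter beside -0.0052 over all genes tested. Not being called at the low dose is thus not the same as unchanged. On loss 136 of 187 rose (72.7%) and 51 were not called, beside 1008 of 1128 (89.4%) of all falls of at least 2-fold. Mgl2, a lectin of myeloid cells, had 76.8 and 99.2 exon reads in noDox, 128 and 120.2 in 0.1Dox and 2.61 and 1.58 in 2.5Dox (-5.36 between the doses, adjusted p = 1.36e-10). It was low in both full-dose libraries only, and on loss it went from 190.4 and 217 to 214 and 135, which did not pass. The oestrogen receptor gene Esr1 had 379 and 332 exon reads in noDox, 309 and 318 in 0.1Dox and 41.8 and 25.3 in 2.5Dox (-3.23 between the doses, adjusted p = 6.65e-12), while its introns did not pass (-0.36). Cd84, a leukocyte adhesion gene with 1 miR-294 match in its 3′ UTR, had 61.05 and 81.9 exon reads in noDox, 47.8 and 87.7 in 0.1Dox and 11.8 and 3.16 in 2.5Dox (-3.17 between the doses). The summed haematopoietic markers were 825 and 716 in noDox and 660 and 618 in 2.5Dox. The summed olfactory receptor reads given above were also lowest in 2.5Dox. On loss they were 406 and 416 at 0 h and 419 and 386 after 96 h. Vomeronasal receptor genes summed to 83.7 and 86.2 in noDox, 109 and 130 in 0.1Dox and 65.3 and 33.2 in 2.5Dox. Whether the 189 genes share a trait of the 2.5Dox libraries with these receptor genes was not tested.

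The matching rule for rises was met by 36 genes, of which 22 of 34 had fallen on loss. Among all genes with at least 50 reads called higher at the full than at the low dose, whether or not they met this rule, 6 had the largest differences. These were 1110032F04Rik (2.12), Gdpd1 (1.66), Serinc2 (1.64), Susd5 (1.64), Fam43b (1.57) and Pogk (1.49). Without the 0.1Dox library of fewer reads the differences of Serinc2, Fam43b and Pogk did not pass (1.32, 0.85 and 1.09), and that of Susd5 did not pass without the 2.5Dox or the 0.1Dox library of more reads (1.47 and 1.45), nor that of Pogk without the former (1.35). Serinc2 had 7.88 and 12.9 exon reads in noDox, 42.7 and 26.9 in 0.1Dox and 109.8 and 106 in 2.5Dox, higher at each dose. 1110032F04Rik and Gdpd1 did not pass against noDox (1.03 and 0.64), and their 0.1Dox libraries were the lowest of the 3 groups. The calls of Fam43b and Pogk against noDox were lost without any 1 of the 4 libraries compared (0.96 to 1.30 and 0.93 to 1.19).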

How the data were processed

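RNA of TT-FHAgo2 cells was read from strand-specific polyA libraries, per the labels' protocols. The deposited tables hold a signal per gene for exons and for introns: the authors' means over the 2 libraries of a group of reads divided by size factors. The submitters' processing notes name TopHat2 2.0.12, DESeq and mm10, with no role given. The unit differs from the raw counts that could have been tested directly. Because each value is a sum of whole multiples of 2 steps, the whole reads of both libraries were recovered, with 1 solution for 100% of the values in every column. Libraries of a group are told apart by depth only. Recovery and tests were checked on simulated data.

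Changes were tested with limma 3.58.1 (R 4.3.3) with a trended prior on log2(normalised reads + 1), over all 6 rescue libraries or all 8 of the time course, for genes with a mean of at least 10, with Benjamini-Hochberg adjustment over all genes tested and calls at an adjusted p below 0.05. The exon-minus-intron change was taken per library and centred on its median. Exon and intron tables of a group were joined by depth order. Of 18412 genes 18002 matched 1 gene of GENCODE M21. Seed matches were counted in the longest 3′ UTR, and promoters and microRNAs came from RefSeq (GRCm38.p6). Alternatives were the pseudocount, the read minimum, the scaling, the prior, the UTR and match length, and leaving out each library.

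The members, gene lists and tests were chosen with earlier results of these data known. Genes named are Ago1 to Ago4, Blm, Lin28a, Lefty1, Lefty2 and Cdkn1a, the 12 largest called exon changes each way with at least 50 reads, up to 4 members of each list by adjusted p, the 6 largest called intron, exon-minus-intron and between-dose changes each way, and the 6 largest each way called the same way on loss. Some genes of this rule are not reported here. All other list members named are examples chosen after their values were seen. Comparison seeds for miR-122, miR-1a and miR-124 were replaced. A paired fit was not run.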

Additional observations from a re-analysis of the deposited data

Results flagged for a closer look

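Of the genes called both on re-induction and on loss of Ago2, 6428 went opposite ways and 256 went the same way. The 6 largest in each direction, by the smaller of the 2 changes and with at least 50 reads, are given here because in both experiments the libraries of the compared groups did not overlap and lay in the same order. The difference between the experiments itself was not tested. Rises on re-induction were 0.80 for Gm2016 (0.62 on loss), 0.72 for Gm8994 (0.99), 0.67 for the adhesion receptor Adgrd1 (0.63), 0.65 for the polarity gene Crb3 (0.56), 0.62 for the histone gene Hist1h2ao (0.79) and 0.58 for the immediate early gene Egr1 (0.89). Reads of Hist1h2ao may be shared with near-identical histone genes.

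Falls were -0.89 for 9030025P20Rik (-0.45 on loss), -0.79 for the DNA repair gene Brca2 (-0.40), -0.76 for the polymerase subunit gene Polr2k (-0.46), -0.76 for Tenm1 (-1.23), -0.71 for the zinc finger gene Zfp386 (-0.40) and -0.43 for Eml5 (-0.52), whose 3′ UTR holds 1 miR-294 match. Brca2 had 8299 and 8376 exon reads in noDox, 8622 and 9216 in 0.1Dox and 4802 and 4844 in 2.5Dox, so only the full dose was low, and 12646 and 13309.9 at 0 h and 9462 and 10147 after 96 h of loss. The call of Tenm1 was lost without any 1 of the 4 libraries compared (-0.83 to -0.68), and that of Hist1h2ao without the 2.5Dox library of fewer reads (0.47) or the noDox library of more reads (0.52).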

How the results depend on the processing

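Exon and intron counts, in each direction, stayed within 1.5 times under all alternatives run, and no gene called both in the reported fit and under another setting changed direction. Scaling to the upper quartile moved the exon split to 4783 up and 3722 down (median over all genes 0.065). A prior without trend gave 575 higher and 654 lower exon-minus-intron changes and 1509 higher and 1833 lower differences between the doses. Leaving out 1 library gave 726 to 1347 higher and 795 to 1388 lower exon-minus-intron changes. Of the lists, the count in the direction of most calls moved to 2 for BMP-Smad1/5 targets (upper quartile), to 3 for streak genes (mean of at least 50) and to 5 for mitochondrial quality control (no trend), and ranged over 6 to 9 for germline and 9 to 11 for imprinted genes when 1 library was left out. The smaller count moved too: rises went from 6 to 3 for Tgf-β components (without the deeper noDox library, or with no trend) and from 8 to 5 for cholesterol genes (without the other). The respiratory chain turned from 4 up and 6 down to 13 and 5 by upper quartile. Medians moved from -0.68 to -0.38 for Smad2/3 targets (no read minimum or one of 50) and from 0.44 to 0.25 for glycolysis (without the deeper noDox library). The miR-294 median was -0.36 with the longest coding sequence, -0.21 with 7-base matches, -0.27 by upper quartile and -0.36 to -0.31 without 1 library. The miR-17 median was -0.22, -0.28 and -0.36 to -0.32 in the last 3. The let-7a median turned to 0.042 by upper quartile. Joining the introns of a group in the other order, tried after the data were seen, gave 1246 to 1322 higher. Over the named genes, 18 exon, 37 between-dose, 38 intron and 54 exon-minus-intron calls were lost in fits without 1 library. The causes were not tested. Lone libraries were assumed to vary like the other groups. No paired analysis was possible because the columns carry no replicate number.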
